A study of Mus musculus with 6 samples.

Results

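Expression of 10 regulators and markers of the epithelial-mesenchymal transition (EMT) was followed in mouse pancreatic tumour organoids. The genes, Vim, Zeb1, Zeb2, Snai1, Snai2, Twist1, Cdh2, Esrp1, Esrp2 and Grhl2, were taken by their symbols. All 10 symbols matched 1 gene each among the 54453 genes of the deposited tables, and 5 of the 10 (Esrp1, Esrp2, Grhl2, Snai1 and Vim) had enough counts for a test. The organoids came from KPC tumours, a much-used mouse model of ductal adenocarcinoma of the pancreas, and carried either Scrib hairpin number 5523 or, as the control, a hairpin to Renilla luciferase, which mice lack. The 3 lines were T91 (female, passage 10), T113 (male, passage 13) and T118 (male, passage 11), all labelled with the genotype KPF/FC, which the labels do not spell out, and all grown in Matrigel. Each line gave 1 library with the Scrib hairpin and 1 with the Renilla hairpin, so each group held 3 libraries. The labels speak of virus and the design text of transfected plasmids, and both name 1 Scrib hairpin, so an effect of the hairpin sequence and an effect of losing Scrib cannot be told apart.

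EMT is a programme in which epithelial cells loosen their junctions and take on features of mesenchymal cells. Transcriptional repressors of the Snail (Snai1, Snai2), ZEB (Zeb1, Zeb2) and Twist (Twist1) families switch off epithelial genes such as E-cadherin, while Esrp1, Esrp2 and Grhl2 hold the epithelial state, and Zeb1 and Grhl2 are known to repress each other. Vimentin and N-cadherin, encoded by Vim and Cdh2, are its standard mesenchymal markers. In pancreatic cancer the programme is studied for its links to invasion and to poorly differentiated tumours, and Scrib encodes a scaffold of the basolateral polarity complex that epithelial cells need to keep their apical and basal sides apart.

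The knockdown was alike across the lines, while in each line depth was lower with the Scrib hairpin. Summed estimated counts were 24035559, 29817060 and 27990393 with the Scrib hairpin in T91, T113 and T118, against 29910162, 36235773 and 29985089 with the Renilla hairpin. Each count was worth between 0.0276 and 0.0416 CPM, the usual depth-scaled unit, taken here of the unscaled library total. Scrib stood at 29.42, 36.04 and 29.33 CPM with the Scrib hairpin in T91, T113 and T118, against 176.3, 161 and 154.4 CPM with the Renilla hairpin, and fell by 2.38 on the log2 scale (standard error 0.12, adjusted p of 0.00582 by the quasi-likelihood test of edgeR, with the Benjamini-Hochberg method). All 10 markers of ductal tumour epithelium on the list used here passed the filter on low counts, and Epcam was at 422 to 578 CPM with the Scrib hairpin and at 532 to 628 CPM with the Renilla hairpin. The share of counts on mitochondrial genes lay between 1.69% and 2.32%.

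The organoids expressed the epithelial side of the list and hardly any of the mesenchymal side. Per kilobase of merged exons, a scale on which genes of different length can be compared, Esrp1 averaged 31.3 ± 4.58 CPM per kb with the Scrib hairpin and 33.9 ± 4.45 with the Renilla hairpin (SD, n = 3 each). Esrp2 averaged 23.1 ± 4.28 CPM per kb with the Scrib hairpin and 24.1 ± 1.71 with the Renilla hairpin, and Grhl2 averaged 8.14 ± 1.08 and 7.91 ± 1.82 CPM per kb in the same order of hairpins. Over the 6 libraries these 3 genes kept apart, with Esrp1 between 27.2 and 38.1, Esrp2 between 18.2 and 26.3 and Grhl2 between 6.00 and 9.64 CPM per kb. Among 21811 protein-coding genes, ranked by their mean over all libraries, Esrp1 stood at the percentile 92.6, Esrp2 at 89.4 and Grhl2 at 74.4.

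The other 7 members lay far lower on the same scale. Snai1 averaged 0.269 ± 0.0388 CPM per kb with the Scrib hairpin and 0.215 ± 0.0398 with the Renilla hairpin, Vim 0.164 ± 0.140 and 0.111 ± 0.0607, and Twist1 0.126 ± 0.201 and 0.0934 ± 0.0970 (SD, n = 3 each, Scrib hairpin first for each gene). The ranges of these 3 genes overlapped, so their order does not hold beyond the spread. Cdh2, Snai2, Zeb1 and Zeb2 were at or below 0.0206 CPM per kb in every library. In each library the lowest of the 3 epithelial regulators was Grhl2, and its level per kb was between 22.4 and 47.5 times that of the highest of the other 7 members, which was Twist1 in T91 with the Scrib hairpin and Snai1 in the other 5 libraries.

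**Figure D1:**
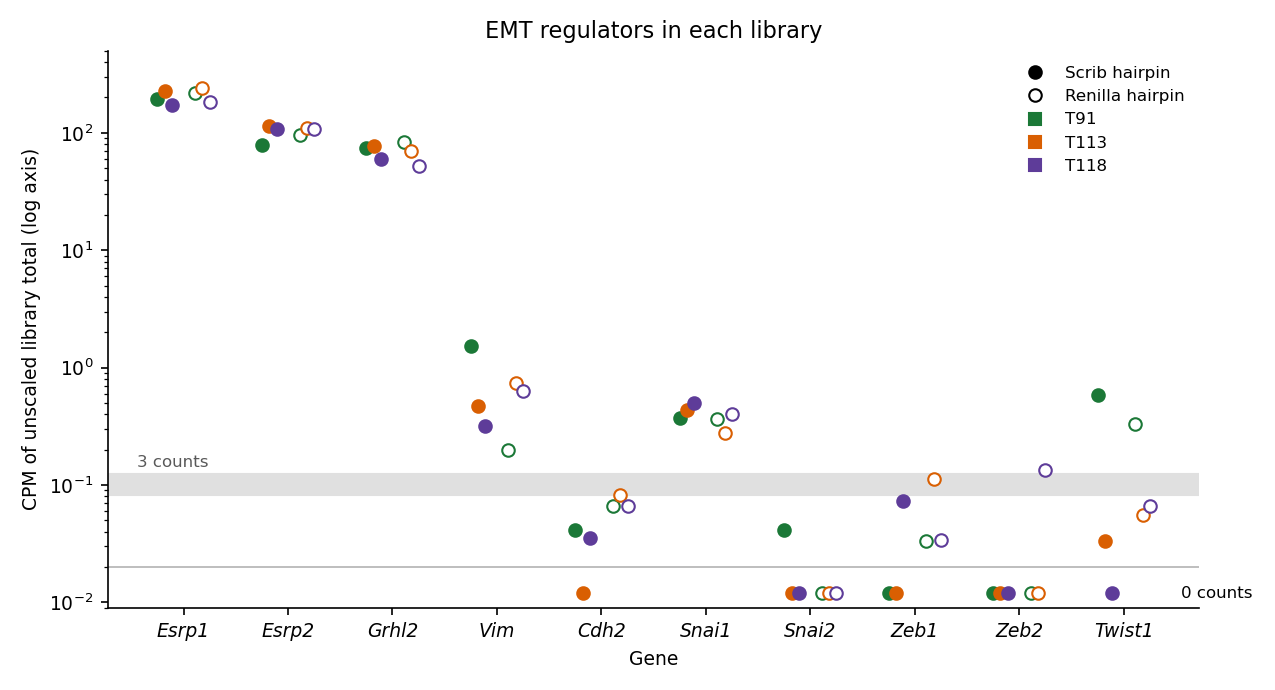
Level of each of the 10 genes in each of the 6 libraries, in CPM of the unscaled library total on a log axis, with filled points for the Scrib hairpin, open points for the Renilla hairpin and colours for the lines; points under the thin line are libraries with 0 counts, and the grey band is the CPM of 3 counts. Heights are not corrected for gene length. Esrp1, Esrp2 and Grhl2 lie between 51.7 and 240 CPM in all libraries, while every other gene stays at or below 1.54 CPM.

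The first comparison asked whether depletion of Scrib moved these genes. No member passed: of 14169 genes tested, 1 was called (Scrib itself, 0.00706% of the genes), and of the 5 members tested 0 were called by edgeR, by DESeq2 or by limma-voom, and 0 had an unadjusted p under 0.05 by any of the 3 tools. Over all 14169 genes DESeq2 called 63 and limma-voom 8, and 936 genes by edgeR, 766 by DESeq2 and 1006 by limma-voom had an unadjusted p under 0.05, so 0 of 5 members is near the share of all genes. The count over all genes depended on single lines. It was between 11 and 238 when a line or a library was left out, whereas the count of members called stayed at 0. With 1 library left out, the other library of its line no longer bears on the hairpin estimate. Leaving out a line or either of its libraries thus gave nearly the same estimates, and these runs are no separate checks. The epithelial members were measured most closely, with 1551 to 8706 counts per library, and their estimates lay between -0.11 and 0.06 on the log2 scale. The lower ends of their 95% intervals were folds between 0.798 and 0.875, and the upper ends were folds between 1.07 and 1.25. Both scarce members that could be tested, Snai1 and Vim, had wider intervals, which for Vim ran from a fold of 0.342 to 4.74.

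Esrp1, an RNA-binding protein that directs epithelial patterns of splicing, is on the minus strand of chromosome 4 (11331933 to 11386783 in GRCm38). It stood at 192, 229 and 172 CPM with the Scrib hairpin in T91, T113 and T118, against 217, 240 and 184 CPM with the Renilla hairpin. Every line had less Esrp1 in its knockdown library, but the ranges of the groups overlapped. The fitted log2 fold change was -0.11 (standard error 0.09, 95% interval -0.33 to 0.10, adjusted p of 0.810 by the same edgeR test). Taken line by line, T91 gave a log2 ratio of -0.16, T113 of -0.08 and T118 of -0.10. The exact 95% intervals of these 3 ratios lay below 0, but they cover counting error only and each line had 1 library per hairpin. Exon sequence of Esrp1 overlaps the antisense gene Gm26663 in the annotation, and since no strand setting is stated, reads of the overlap may not have been told apart.

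Esrp2, the paralogue of Esrp1 with a similar role in splicing, lies on the minus strand of chromosome 8 (106130319 to 106136974). Its level was 79.1, 114 and 107.3 CPM with the Scrib hairpin in T91, T113 and T118, against 95.9, 109.8 and 107.4 CPM with the Renilla hairpin. T91 with the Scrib hairpin was the lowest library, and the other 5 lay close together. The log2 fold change was -0.07 (standard error 0.10, 95% interval -0.32 to 0.18, adjusted p of 0.893 by edgeR), and without T91 it turned to 0.02. Exons of Esrp2 overlap those of the antisense genes Nfatc3 and 1810019D21Rik. The deposited values are sums per gene, so the splice forms that both ESRP proteins are known to control could not be followed.

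Grhl2, a Grainyhead-like transcription factor that activates genes of epithelial junctions, lies on the plus strand of chromosome 15 (37233036 to 37363569). It stood at 74.5, 76.5 and 59.5 CPM with the Scrib hairpin in T91, T113 and T118, against 83.0, 69.6 and 51.7 CPM with the Renilla hairpin. The knockdown library was lower in T91 and higher in T113 and T118. The log2 fold change was 0.06 (standard error 0.11, 95% interval -0.19 to 0.32, adjusted p of 0.914 by edgeR), and without T118 it was -0.0014. T91 gave a log2 ratio of -0.14 (95% counting interval -0.23 to -0.06), T113 of 0.13 (0.05 to 0.21) and T118 of 0.20 (0.10 to 0.30). With 1 library per hairpin and line, whether the lines differ in this ratio could not be tested.

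**Figure D2:**
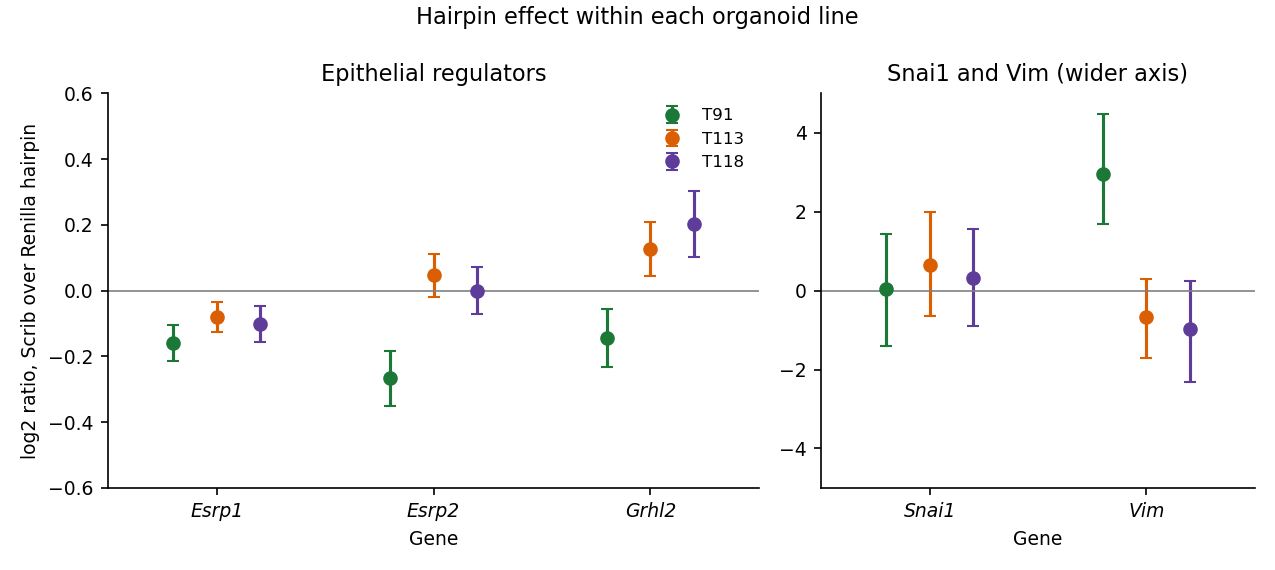
The log2 ratio of the library with the Scrib hairpin over the library with the Renilla hairpin within each line, scaled by TMM library size, with exact 95% intervals for counting error only; the right panel has a wider axis. Esrp1 lies between -0.16 and -0.08 in all lines, Grhl2 between -0.14 and 0.20, and Vim reaches 2.95 in T91 while it is -0.67 in T113 and -0.98 in T118.

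Among the repressors, Snai1 was the one with counts in every library. It encodes a zinc-finger protein that binds E-box sequences in the promoter of E-cadherin, and lies on the plus strand of chromosome 2 (167538195 to 167542814). Its estimated counts were 9, 13 and 14 with the Scrib hairpin in T91, T113 and T118, against 11, 10 and 12 with the Renilla hairpin, which is 0.374, 0.436 and 0.5002 CPM against 0.368, 0.276 and 0.400 CPM. All 6 libraries thus lay within a narrow span of low counts. The log2 fold change was 0.34 (standard error 0.40, 95% interval -0.61 to 1.29, adjusted p of 0.864 by edgeR). In folds that interval runs from 0.655 to 2.44, and no difference was detectable at this depth.

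The other repressors were at the edge of detection. Zeb1 had 2.04 counts in 1 of the 3 libraries with the Scrib hairpin (T118) and 0 in T91 and T113, against 1, 4.04 and 1.01 counts with the Renilla hairpin in T91, T113 and T118. Zeb2 had 0 counts in all 3 libraries with the Scrib hairpin, which allows up to 0.0367 CPM over the group (3 counts), against 4 counts in T118 and 0 in T91 and T113 with the Renilla hairpin. Snai2 had 1 count in T91 with the Scrib hairpin and 0 in T113 and T118, against 0 in all 3 libraries with the Renilla hairpin, which allows up to 0.0312 CPM over that group. These counts are too few for any statement on a difference between hairpins. Zeb2 shares exon sequence with the antisense gene Zeb2os, and Zeb1 with the antisense gene Gm10125.

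Twist1, a basic helix-loop-helix repressor, had 14, 1 and 0 counts with the Scrib hairpin in T91, T113 and T118, against 10, 2 and 2 counts with the Renilla hairpin. Nearly all of its counts therefore came from T91, whichever the hairpin. Cdh2, which encodes N-cadherin, the cadherin that mesenchymal cells carry in place of E-cadherin, had 1, 0 and 1 counts with the Scrib hairpin against 2, 3 and 2 with the Renilla hairpin. No library had more than 3 counts of Cdh2, which is no more than 0.0828 CPM.

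Vim encodes vimentin, the intermediate filament of mesenchymal cells, and lies on the plus strand of chromosome 2 (13573927 to 13582826). It had 37, 14 and 9 counts with the Scrib hairpin in T91, T113 and T118, against 6, 27 and 19 counts with the Renilla hairpin, which is 1.54, 0.469 and 0.321 CPM against 0.201, 0.745 and 0.634 CPM. The highest and the lowest of the 6 libraries were the pair of the T91 line. Vim was 7.74 times as high with the Scrib hairpin in T91 (exact 95% counting interval 3.24 to 22.4), and 0.626 times as high in T113 (0.304 to 1.24) and 0.508 times in T118 (0.202 to 1.18). Over the lines the log2 fold change was 0.35 (standard error 0.79, 95% interval -1.55 to 2.24, adjusted p of 0.936 by edgeR). Without T91 it turned to -0.81, with an adjusted p of 0.464 by the same test.

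The promoters of Snai1 and Vim, the members of the mesenchymal side that could be tested, are shown because the EMT repressors are known to act through the E-box CACCTG. Each runs from 250 bases before to 50 bases after the start in RefSeq (GRCm38.p6, plus strand), 5′ to 3′, with matches to CACCTG or to CAGGTG, the same site on the other strand, in capitals.
Snai1 promoter, chr2:167537945-167538244: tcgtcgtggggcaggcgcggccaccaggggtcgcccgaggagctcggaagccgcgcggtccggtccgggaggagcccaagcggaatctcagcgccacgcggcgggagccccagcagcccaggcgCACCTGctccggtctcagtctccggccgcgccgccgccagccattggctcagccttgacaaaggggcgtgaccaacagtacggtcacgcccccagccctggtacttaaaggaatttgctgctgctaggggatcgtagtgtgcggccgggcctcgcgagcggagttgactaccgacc
Vim promoter, chr2:13574061-13574360: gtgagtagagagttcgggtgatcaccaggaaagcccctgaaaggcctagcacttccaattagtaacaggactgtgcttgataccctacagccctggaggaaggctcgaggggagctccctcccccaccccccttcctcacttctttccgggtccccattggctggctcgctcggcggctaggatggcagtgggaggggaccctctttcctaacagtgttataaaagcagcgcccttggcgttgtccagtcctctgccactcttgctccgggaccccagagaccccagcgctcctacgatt
The Snai1 promoter holds 1 match, at position -126 from the start, and the Vim promoter holds 0. A match occurs in 20.2% of the 32851 promoters of the same length in the table. Of the 10 members, 4 had a promoter there, the others with an entry being Twist1 and Zeb2, and neither of these holds a match.

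**Figure D3:**
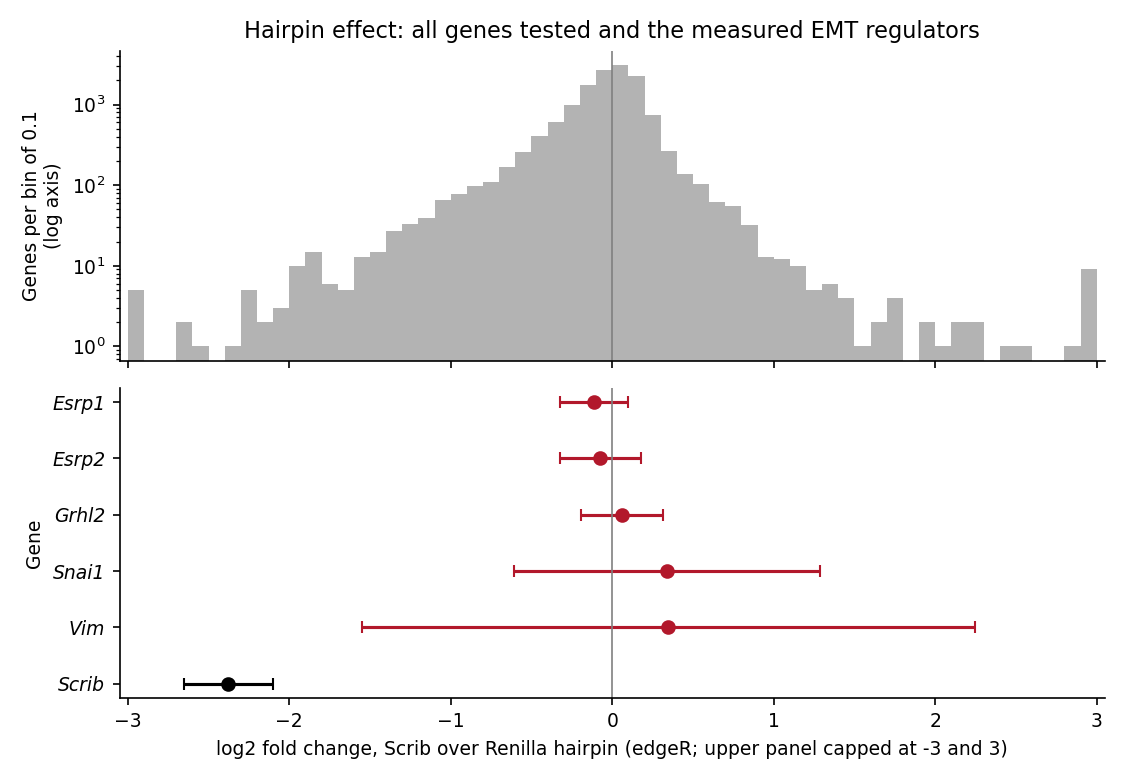
Upper panel, histogram of the log2 fold change of the Scrib over the Renilla hairpin over all 14169 genes tested (log count axis, values beyond -3 or 3 placed in the end bins); lower panel, the estimates and 95% intervals of the 5 members tested and of Scrib, from edgeR. The members lie between -0.11 and 0.35 with intervals that include 0, and Scrib lies at -2.38.

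The level of Vim was set beside the markers of other cell types, since fibroblasts, macrophages and endothelial cells carry vimentin. In bulk libraries a few cells of another type and a low level in all cells cannot be told apart. The summed level of 10 fibroblast markers was 7.66, 1.41 and 2.18 CPM with the Scrib hairpin in T91, T113 and T118, against 1.17, 1.74 and 1.37 CPM with the Renilla hairpin. T91 with the Scrib hairpin thus stood above the other 5 libraries, as it did for Vim, and 6 of the 8 fibroblast markers with any count were highest there. The collagen gene Col3a1 had 48 counts in that library, against 1 to 8 in the others, and Dcn, which encodes decorin, had 6 against 0 to 2. Pdgfrb and Fap went the other way. Pdgfrb had 5 counts in that library, against 36 in T113 with the Renilla hairpin, and Fap had 1, against 2 in T91 with the Renilla hairpin. Lum and Dpt were at 0 in all libraries. The collagen gene Col1a1 was at 3.50, 0.805 and 1.0 CPM with the Scrib hairpin, against 0.501, 0.497 and 0.433 CPM with the Renilla hairpin (log2 fold change 1.60, standard error 0.48, adjusted p of 0.712 by edgeR).

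The summed level of 8 macrophage and leukocyte markers was also highest in T91 with the Scrib hairpin. It was 6.41, 2.25 and 2.75 CPM with the Scrib hairpin in T91, T113 and T118, against 3.41, 4.17 and 4.57 CPM with the Renilla hairpin, and 5 of the 8 markers were highest in that library. Lyz2 had 27 counts there, against 0 to 7 in the others, and the complement gene C1qa had 18 against 0 to 2. The pan-leukocyte gene Ptprc had 1 against 0 to 3. Cd68, the 1 marker of the 8 that passed the filter on low counts, made up most of each sum. It was at 3.661 CPM in T91 with the Scrib hairpin, below T113 and T118 with the Renilla hairpin (3.946 and 3.969 CPM). The rest of the libraries were lower. Its log2 fold change was -0.49 (standard error 0.3, adjusted p of 0.789 by edgeR). The 6 endothelial markers summed to 1.01, 1.38 and 5.36 CPM with the Scrib hairpin, against 1.04, 0.938 and 4.57 CPM with the Renilla hairpin, so that T118 was high whichever the hairpin. Tie1 and Tek, the genes of the Tie receptor kinases, made up most of the T118 sums. They were at 3.79 and 1.36 CPM with the Scrib hairpin and 3.34 and 0.967 CPM with the Renilla hairpin. Cdh5, Kdr and Emcn were at or below 0.0334 CPM in both T118 libraries. Pecam1, the remaining marker, was at 0.2144 CPM in T118 with the Scrib hairpin and at 0.2001 CPM with the Renilla hairpin. Its level was highest in T91 with the Scrib hairpin (0.3452 CPM) and at or below 0.05519 CPM in the rest. The 5 markers of pericytes and smooth muscle summed to between 0.470 and 0.643 CPM with the Scrib hairpin and between 0.167 and 0.331 CPM with the Renilla hairpin. These sums rest on 14 to 18 counts per library with the Scrib hairpin and on 5 to 12 with the Renilla hairpin. Of the 5 markers 0 passed the filter on low counts, and Des was at 0 throughout. Of the neural and Schwann markers, the Schwann cell factor Sox10 was at 0 throughout as well, but Mbp on the same list passed the filter. Mbp stood at 71.3, 107 and 75.5 CPM with the Scrib hairpin in T91, T113 and T118, against 87.1, 103 and 74.7 CPM with the Renilla hairpin. The part of such cells in the Vim counts was not tested. Of the markers with any count, 3 of 6 endothelial, 2 of 4 pericyte and smooth muscle, 3 of 5 neural and Schwann and 2 of 4 acinar markers were also highest in T91 with the Scrib hairpin. Of the ductal tumour epithelium markers, 1 of 10 was. That library had the lowest depth, so a single count was worth the most CPM there (0.0416). How many of all genes were highest in T91 with the Scrib hairpin was not counted. The genes Col3a1, Dcn, Pdgfrb, Fap, Lum, Dpt, Lyz2, C1qa, Ptprc, Tek, Cdh5, Kdr, Emcn, Pecam1, Des and Sox10 were chosen here after their values were seen.

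**Figure D4:**
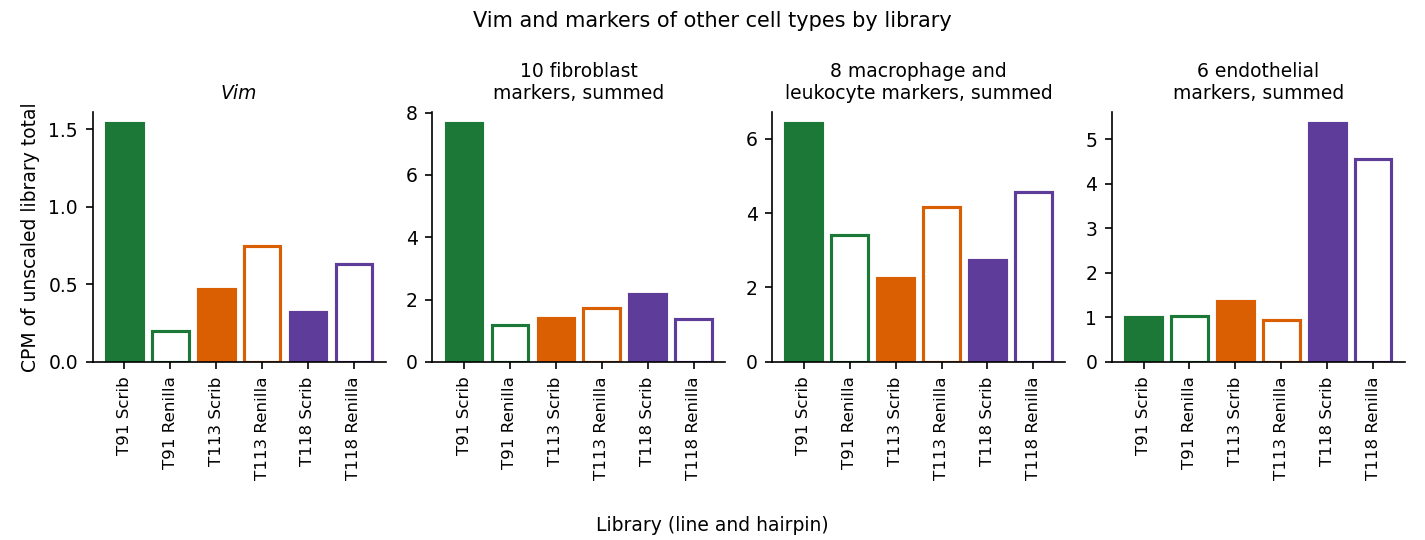
Vim and the summed levels of fibroblast, macrophage and leukocyte, and endothelial markers in each library, in CPM of the unscaled library total; filled bars have the Scrib hairpin, open bars the Renilla hairpin, and colours mark the lines. T91 with the Scrib hairpin is highest for Vim (1.54 CPM), for the fibroblast sum (7.66 CPM) and for the macrophage and leukocyte sum (6.41 CPM), whereas T118 is highest for the endothelial sum.

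Further genes of the programme were described by 4 lists, and no gene on them passed the test for the hairpin over all genes. Of 15 other EMT factors 9 were tested, 4 above and 5 below 0, with a median log2 fold change of -0.18, beside -0.0095 over all genes tested. Over all 14169 genes tested, 6830 were above and 7339 below 0. Sox4, an SRY-related factor induced by TGF-beta signalling, had an estimate of -0.66 on the log2 scale (standard error 0.15, adjusted p of 0.573 by edgeR). Tcf4, a basic helix-loop-helix E protein, had one of -0.47 (0.16), the forkhead gene Foxq1 of -0.40 (0.18) and the chromatin protein gene Hmga2 of -0.20 (0.11). Foxq1 was at -0.64 without T91, with an adjusted p by edgeR of 0.0497 when its Scrib hairpin library was left out, 0.0672 when its Renilla hairpin library was and 0.0647 when both were. In that order these runs called 238, 111 and 146 genes over all genes tested. Twist2 and Gsc were at 0 in all libraries. Of 12 other epithelial transcription factors 11 were tested, 5 above and 6 below 0, with a median of -0.15. Klf5 had a log2 fold change of -0.21 (0.09), Ehf of -0.19 (0.09), Foxa1 of -0.20 (0.09) and the Grhl2 paralogue Grhl1 of 0.21 (0.13).

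Epithelial effector genes were all measured. Of 30 members 10 were above and 20 below 0, with a median of -0.045, beside 6830 above and 7339 below 0 over all genes tested. Line by line the median was 0.14 for T91, -0.036 for T113 and -0.19 for T118. Cdh1, which encodes E-cadherin and is the best-known target of the repressors above, stood at 801, 1015 and 1006 CPM with the Scrib hairpin in T91, T113 and T118, against 943, 1123 and 1158 CPM with the Renilla hairpin. Every line had less Cdh1 in its knockdown library, and the fitted estimate was -0.19 (standard error 0.09, adjusted p of 0.772 by edgeR). Cldn4, a claudin that Grhl2 is known to activate, stood at 130.4, 76.1 and 46.0 CPM with the Scrib hairpin, against 119, 162 and 119 CPM with the Renilla hairpin. It was lower in T113 and T118 and higher in T91, and its log2 fold change was -0.77 (standard error 0.32, adjusted p of 0.770 by edgeR). Without T91 it became -1.23, with an adjusted p of 0.00219 by edgeR, in a run that called 146 genes over all genes tested. The cadherin gene Cdh17 had a log2 fold change of -0.25 (0.10) and the tight junction gene Ocln of -0.19 (0.10).

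Of 40 mesenchymal effector genes 16 were tested, 5 above and 11 below 0, with a median of -0.092 (0.31 without the filter on low counts). In T91 with the Scrib hairpin, 21 of the 38 with any count were highest. So were 6 of 13 other EMT factors, 1 of 12 epithelial factors and 5 of 30 epithelial effectors with any count. How many of all genes were was not counted. Of the genes tested, those highest there were Col1a1, Col1a2, Fbln5 and Lgals1. The rest of the 21 did not pass the filter, and Cnn1 and Fbn1 had 1 count there. Fbln5, Lgals1, Cnn1 and Fbn1 were chosen here after their values were seen. Besides Col1a1 the smallest p-values belonged to Fbln1, which encodes the matrix protein fibulin-1, at -0.71 on the log2 scale (standard error 0.17), to the fibronectin receptor gene Itga5 with -0.96 (0.37) and to the collagen gene Col1a2 with 1.19 (0.46). None had an adjusted p below 0.598 by edgeR. Fbln1 was at -0.86 without T91, with an adjusted p by edgeR of 0.0487 when its Scrib hairpin library was left out, 0.0672 when its Renilla hairpin library was and 0.0636 when both were. In that order these runs called 238, 111 and 146 genes over all genes tested.

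The second comparison asked whether the 3 lines differed in these genes, by an F-test on the line terms of that same model. Of 14169 genes, 1989 (14.0%) were called, and of the 5 members tested 0 were. Grhl2 had the smallest adjusted p, 0.110 by edgeR, and was lower in T118, at 59.5 and 51.7 CPM (Scrib hairpin, then Renilla hairpin), than in T91, at 74.5 and 83.0 CPM, a log2 difference of -0.48 (standard error 0.13). Esrp1 was at 172 and 184 CPM in T118 and at 229 and 240 CPM in T113, a log2 difference of -0.32 (0.11), with an adjusted p of 0.187 for the lines. Esrp2 was at 107.3 and 107.4 CPM in T118 and at 79.1 and 95.9 CPM in T91, a difference of 0.32 (0.13, adjusted p of 0.211). The adjusted p of Snai1 was 0.779 and that of Vim 0.857. These calls depended on single libraries: without T91 with the Renilla hairpin Esrp1 and Esrp2 came under the threshold, and without T91 with the Scrib hairpin Esrp1 and Grhl2 did. Those runs leave T91 with a single library. The count over all genes also moved when a library was left out, so these calls are not set beside the 14.0%.

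Twist1 did not pass the filter on low counts, which asked for enough counts in 3 libraries, and was tested only in the fit without that filter. There the lines differed, with an adjusted p of 0.0422 by edgeR, where 2966 of 27467 genes (10.8%) were called. Its log2 difference was -3.25 for T113 over T91 and -3.55 for T118 over T91, from 1 and 2 counts in T113 and 0 and 2 counts in T118 against 14 and 10 counts in T91 (Scrib hairpin, then Renilla hairpin).

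Several genes of the 4 lists differed between lines. Of the other EMT factors 6 of 9 were called, against 3 of 11 epithelial factors, 7 of 30 epithelial effectors and 6 of 16 mesenchymal effectors, beside 14.0% of all genes. The 6 EMT factors did not share 1 pattern over the lines. Hmga2 was lowest in T91 (log2 difference 0.34 for T113 and 0.79 for T118, each over T91, adjusted p of 0.0249 by edgeR). Tcf4 was highest in T113 (0.75 over T91, adjusted p of 0.0238 by edgeR). Sox4 was at 0.929 and 1.63 CPM in T118 and 0.872 and 1.49 CPM in T113, against 35.6 and 51.5 CPM in T91 (Scrib hairpin, then Renilla hairpin), a log2 difference of -5.08 for T118 over T91 and of -5.27 for T113 over T91 (adjusted p of 0.000126 by edgeR). Mmp14, a membrane-bound matrix metalloproteinase, was at 1.11 and 2.44 CPM in T118 and 1.85 and 1.66 CPM in T113, against 47.3 and 48.0 CPM in T91, with differences of -4.75 and -4.82 (adjusted p of 0.000383). Fn1, which encodes fibronectin, was at 3.51 and 3.33 CPM in T118, 16.4 and 17.6 CPM in T113 and 43.5 and 80.3 CPM in T91 (adjusted p of 0.000735).

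T91 was also the highest line for Foxc1, a forkhead factor (log2 difference -1.79 for T113 and -3.48 for T118, each over T91), for Foxq1 (-0.42 and -1.41) and for the collagen cross-linking enzyme gene Loxl2 (-2.34 and -3.24). On the epithelial lists, T91 held more P-cadherin transcript, Cdh3 (-4.10 for T113 and -1.85 for T118, each over T91), whereas Foxa1 was highest in T113 (1.57 over T91). Foxa2 was lower in T118 than in T91 (-0.99) and Sox9 was lower in T113 than in T91 (-1.32). The keratin gene Krt7 was lower in T113 than in T91 (-0.90) and Cdh17 was higher in T118 than in T91 (1.12). All of these passed the F-test over all genes, with adjusted p-values by edgeR from 0.000660 to 0.0194. Without T113 with the Renilla hairpin, Sox9 and Krt7 no longer passed (adjusted p of 0.0543 and 0.0639), and without the hairpin term in the model Foxq1 no longer did (0.0610). A line had no second library with the same hairpin, so its own spread was not measured.

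**Figure D5:**
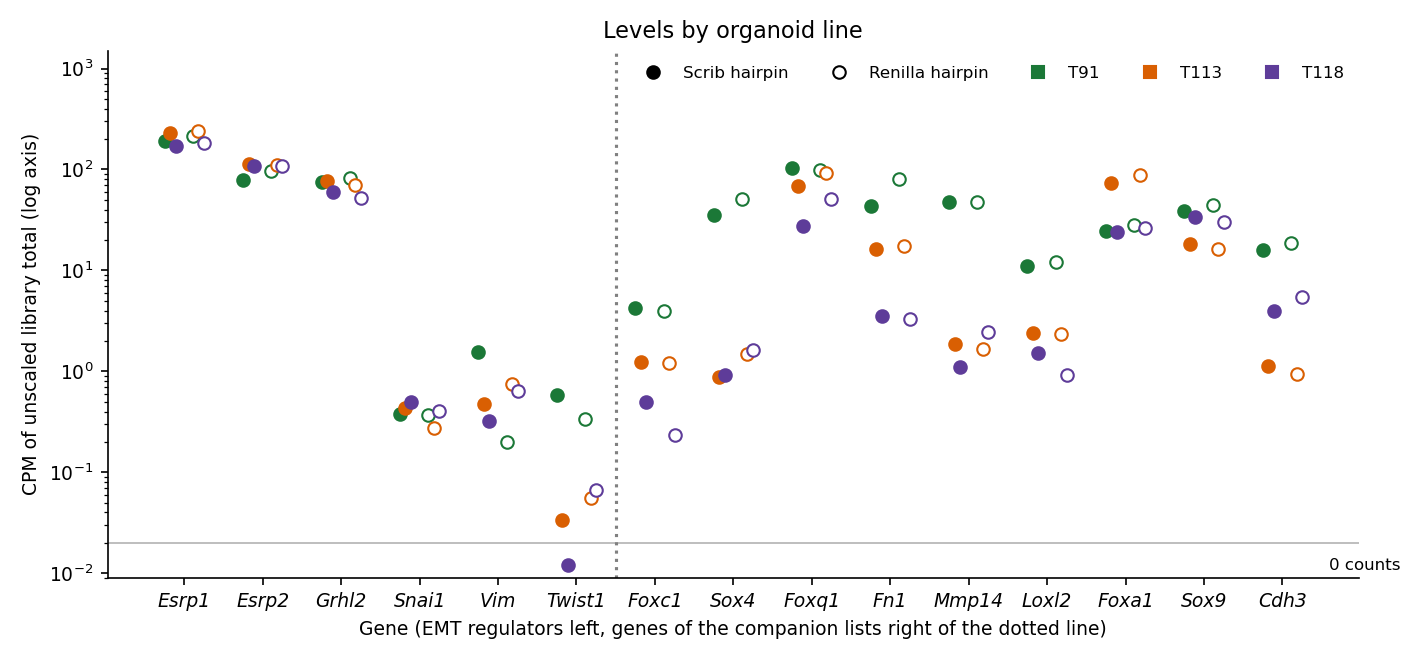
Level in each library, in CPM of the unscaled library total on a log axis, of 6 EMT regulators (left of the dotted line) and of 9 genes of the companion lists named for a line difference (right); filled points have the Scrib hairpin, open points the Renilla hairpin, and colours mark the lines. The green points of T91 lie far above the others for Sox4 and Mmp14 (35.6 to 51.5 CPM, against 0.872 to 2.44 CPM in T113 and T118), while Esrp1, Esrp2 and Grhl2 stay close together.

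The genes whose levels over the 6 libraries were most like those of Esrp1, by the root-mean-square difference of log2 CPM after centring, were Zkscan3 (0.0175), Dcaf8 (0.0271), Mtmr3 (0.0330), D2hgdh (0.0373) and Hdac4 (0.0384), beside a range of 0.415 for Esrp1 itself. Those most like Vim lay much farther off, Snhg10 (0.415), Rhox5 (0.420), Aipl1 (0.432), mt-Co3 (0.445) and Rhov (0.476), beside a range of 2.60 for Vim. In the T91 line mt-Co3, a mitochondrial subunit gene of cytochrome oxidase, was at 579 CPM with the Scrib hairpin and at 158 CPM with the Renilla hairpin (of TMM-scaled totals). It went the other way in T113 (159 against 468 CPM) and in T118 (290 against 398 CPM). With 6 libraries of 3 lines these lists describe the libraries and are no sign of a shared role.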

How the data were processed

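The values are estimated counts for each Ensembl gene, as the authors deposited them, with 1 file for each library and no scaling for depth. The submitters' processing notes name Salmon 1.4.0, DESeq 2 and the build GRCm38 (mm10). No source used here states the transcript annotation, the strand setting or how transcripts were summed.

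The estimated counts were rounded and analysed with R 4.3.3, edgeR 4.0.16, limma 3.58.1 and DESeq2 1.42.0, after tests of the scripts on simulated data. Symbols came from a table of Ensembl identifiers that matched 54131 of the 54453 genes, and positions and exon lengths from GENCODE M21 of GRCm38. The filter was edgeR's filterByExpr, given the hairpin groups and a minimum count of 10, and it kept 14169 genes; libraries were scaled by TMM. The hairpin effect and the line difference were tested in 1 model of line plus hairpin, fitted to the 6 libraries (quasi-likelihood F-test, robust dispersions, two-sided, Benjamini-Hochberg over all genes tested, threshold 0.05, 2 residual degrees of freedom). Standard errors were derived from the fold change and the F statistic. Levels are CPM of unscaled totals unless stated.

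The line pairs the libraries, since each line carried both hairpins per the labels. As a check, deviations from the group means correlated across genes at 0.621, 0.666 and 0.662 within lines. Nothing states that the libraries of a line came from separate cultures, and no 2 libraries held identical values.

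The members and lists were chosen with earlier results of these data known. Named are the members, Scrib, up to 4 genes per list by the p of the hairpin, up to 3 by the p of the lines, and the 5 genes each most like Esrp1 and Vim. Epcam, Twist2, Gsc and the genes said above to be chosen after their values were seen fall outside this rule. Some genes that this rule names on the marker lists are not reported here. Alternatives covered scaling, filters, tools, the block and each line or library left out. Counting intervals are exact Clopper-Pearson intervals at 95% and, like the floor of 3 counts, cover counting error only.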

Additional observations from a re-analysis of the deposited data

Results flagged for a closer look

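Several members had ratios of the Scrib over the Renilla hairpin with opposite signs in different lines, where at least 1 line's counting interval excluded 0. For Vim T91 gave a log2 ratio of 2.95, T113 of -0.67 and T118 of -0.98. For Grhl2 T91 gave -0.14, T113 0.13 and T118 0.20. For Esrp2 T91 gave -0.27, T113 0.047 and T118 -0.00030. With 1 library per hairpin in each line, none of these differences between lines was tested.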

How the results depend on the processing

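The members called for the hairpin numbered 0 under every alternative run. Over all genes, 64 were called for the hairpin without the filter on low counts, 8 by limma-voom, 63 by DESeq2 with the replicate block, and 11 to 238 when a line or library was left out. Fitted with no replicate block, where line does not enter, 1 gene and 0 members were called. Between lines, 1310 genes were called under a stricter filter (mean above 5 CPM), which tests fewer genes and leaves out Vim and Snai1, and 1113 to 4225 with a library left out. The members called between lines were 1 without the filter (Twist1) and 0 to 2 with a library left out. The mesenchymal effectors had a median of 0.31 without the filter. By the longest transcript, Esrp1, Esrp2 and Grhl2 had means of 51.1, 28.3 and 14.2 CPM per kb with the Scrib hairpin, in the same order.

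With lines or libraries left out, the log2 effect of the hairpin changed sign for Esrp2 (-0.13 to 0.024), Grhl2 (-0.0078 to 0.17), Vim (-0.81 to 0.99), Tie1 (-0.15 to 0.55) and Mbp (-0.13 to 0.032). So did the line differences T91 over T118 of Vim (-1.62 to 2.13), T113 over T118 of Scrib (-0.052 to 0.26) and T91 over T113 of Cd68 (-0.36 to 0.82). List medians ran from -0.17 to -0.057 for the other EMT factors, from -0.16 to -0.050 for the epithelial factors, from -0.19 to -0.041 for the mesenchymal effectors, and from -0.15 to 0.051, changing sign, for the epithelial effectors (0.051 without T118). The cause of these shifts was not tested. Depth limits the mesenchymal members: Cdh2, Snai2, Zeb1 and Zeb2 had no more than 4.04 counts in any library.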
